A study of Homo sapiens with 11 samples.

Results

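The 9 genes described here encode the myosin heavy chains MYH6, MYH7 and MYH7B, the myosin light chains MYL2, MYL3, MYL4 and MYL7, and the troponin I isoforms TNNI1 and TNNI3. They were taken by symbol from the 36601 genes of the count tables, as isoforms that differ by heart chamber and by maturity. Their RNA was measured by droplet sequencing of transcript 3′ ends in single cells grown from H9, an established human embryonic stem cell line, on day 42.5. The groups were stable chambered cardioids (cardiac organoids) given PD173074, an inhibitor of the FGF receptor tyrosine kinases (3 libraries), stable chambered cardioids not given it (5 libraries), and cells labelled as 2D culture, with no further description (3 libraries). The labels state neither the dose nor the timing of PD173074, and all cells were released with a cardiomyocyte dissociation kit. The libraries of a group were repeat runs of the same droplets, so each group was 1 sample, its runs were averaged, and no test between groups was possible.

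In the sarcomere, the contractile unit of striated muscle, a pair of myosin heavy chains carries the motor, each with 1 regulatory and 1 essential light chain, and troponin I is the subunit that holds the thin filament inhibited until calcium binds troponin C. In the human heart, MYH6 (alpha) is the main atrial heavy chain and MYH7 (beta) the main ventricular heavy chain. MYL7 and MYL4 are the regulatory and essential light chains of the atria, MYL2 and MYL3 their ventricular counterparts, and MYL4 and MYL7 are also made in embryonic ventricle. TNNI1, the slow skeletal isoform, is the fetal cardiac troponin I and is replaced by TNNI3, the adult cardiac isoform, as the heart matures. MYH7B is an ancient relative of both cardiac heavy chains and is made at low levels in heart and slow muscle.

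In the GRCh38 build, MYH6 (chr14:23381990-23408277) and MYH7 (chr14:23412738-23435718) lie on the minus strand of chromosome 14 with 4460 bases between them. MYH7B (chr20:34975403-35002437, plus strand), MYL2 (chr12:110910819-110920722, minus), MYL3 (chr3:46857872-46882169, minus), MYL4 (chr17:47200446-47223679, plus), MYL7 (chr7:44138864-44141332, minus), TNNI1 (chr1:201403768-201429866, minus) and TNNI3 (chr19:55151767-55157773, minus) are each on another chromosome. An intron of each heavy chain gene holds a microRNA on the same strand, and these microRNAs are known to repress shared targets in muscle. Their mature sequences are shown because they mark the relation between the heavy chain genes, with the seed (bases 2 to 8) in capitals. They come from RefSeq (GRCh38.p14) and were not measured here.
hsa-miR-208a-3p: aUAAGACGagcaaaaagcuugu
hsa-miR-208b-3p: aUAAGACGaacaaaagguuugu
hsa-miR-499a-5p: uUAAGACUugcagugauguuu
miR-208a (in MYH6, chr14:23388602-23388623) and miR-208b (in MYH7, chr14:23417997-23418018) share the seed UAAGACG, and miR-499a (in MYH7B, chr20:34990408-34990428) has UAAGACU.

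RefSeq promoter windows matched 4 of the 9 genes, MYH6, MYL3, MYL7 and TNNI3. The 250 bases before each start were searched on both strands for TATAAA, for AGATAA (a motif of GATA factors), for the MEF2 motif and for the CArG box, the site of serum response factor. The last 120 bases before the start are printed in the direction of the gene, with matches in capitals, since MYL7 and MYL3 are members that differed between the cardioid groups and MYH6 and TNNI3 are members that did not.
MYL7: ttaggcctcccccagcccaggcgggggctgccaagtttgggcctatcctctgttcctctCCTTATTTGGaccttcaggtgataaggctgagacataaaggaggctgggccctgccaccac
MYL3: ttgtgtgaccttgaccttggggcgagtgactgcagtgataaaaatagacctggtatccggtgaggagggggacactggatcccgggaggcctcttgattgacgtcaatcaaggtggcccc
MYH6: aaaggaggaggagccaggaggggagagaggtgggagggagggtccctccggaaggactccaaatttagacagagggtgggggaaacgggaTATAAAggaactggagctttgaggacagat
TNNI3: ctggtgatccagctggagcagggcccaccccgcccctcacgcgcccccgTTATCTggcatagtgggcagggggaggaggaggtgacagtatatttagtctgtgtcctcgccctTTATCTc
The MYL7 window (chr7:44141333-44141452, minus strand) held a CArG box beginning at position -61 from the start, a motif found in 1.16% of 35116 promoter windows. The MYH6 window (chr14:23408274-23408393, minus) held TATAAA at -30, found in 10.7% of windows. The TNNI3 window (chr19:55157733-55157852, minus) held AGATAA, on the reverse strand, at -71 and -7, found in 9.17% of windows. MYL3 had 2 windows, of which the one printed is chr3:46861685-46861804 (minus), and neither held any of the 4 motifs. The MEF2 motif, found in 2.80% of windows, was in none of these. A match is a description of these letters only.

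Runs totalled 36127841 to 37765195 unique molecular identifiers (UMIs, each counting 1 captured transcript) with PD173074, 12266166 to 24495291 without PD173074, and 43908067 to 46304366 in 2D culture. Runs of a group shared at least 99.3% of cell barcodes, and libraries of different groups shared at most 0.737%, which left 16, 11 and 14 TNNT2-positive cells with a barcode also seen in another group. Cardiomyocytes were taken as cells with a mean of at least 1 TNNT2 UMI (cardiac troponin T): 4003 of 4597 cells with PD173074 (87.1%), 3244 of 3534 without PD173074 (91.8%) and 7459 of 8183 in 2D culture (91.2%). TNNT2 itself stood at 2179, 2840.0 and 1938 counts per 1000000 UMIs (CPM) with PD173074, without PD173074 and in 2D culture. Other cardiomyocyte genes were present in each group, with TTN (titin) at 3091, 3373 and 3345 CPM in the same order. RYR2, the calcium release channel, stood at 1478, 1648 and 1422 CPM in the same order. TNNT2-positive cells that carried mainly stromal, cartilage or epithelial markers made up 17.9% of the TNNT2-positive cells with PD173074, 3.82% without PD173074 and 4.68% in 2D culture. These cells held a median of 2.67, 2.90 and 7.33 TNNT2 UMIs, against 16.3, 15 and 9 in the other TNNT2-positive cells. With these cells left out, no member's call between groups changed, and MYL7 with PD173074 over without it was at a log2 ratio of 1.60 and MYL3 at -1.83.

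A gene was taken as different between 2 groups when it reached 20 CPM in the higher group and the whole 95% exact interval of the ratio lay beyond 2-fold. That interval covers counting error only, not the spread between cultures or the sampling of cells. The 3 comparisons share groups and are not independent of each other. With PD173074 over without PD173074, 4 of the 8 members at 20 CPM differed, 1 higher and 3 lower, where 5.48% of all 8124 genes tested did so (3.43% higher and 2.04% lower). Without PD173074 over 2D culture, 2 of 8 differed, both lower, where 1.03% of 7926 genes did (0.871% higher and 0.164% lower). With PD173074 over 2D culture, 4 of 8 differed, 1 higher and 3 lower, where 7.96% of 8154 genes did (5.33% higher and 2.62% lower). Over all cells instead of TNNT2-positive ones the calls were the same, beside 4.98%, 1.38% and 7.96% of genes. The ninth member, MYH7B, was below 20 CPM in every group.

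**Figure D1:**
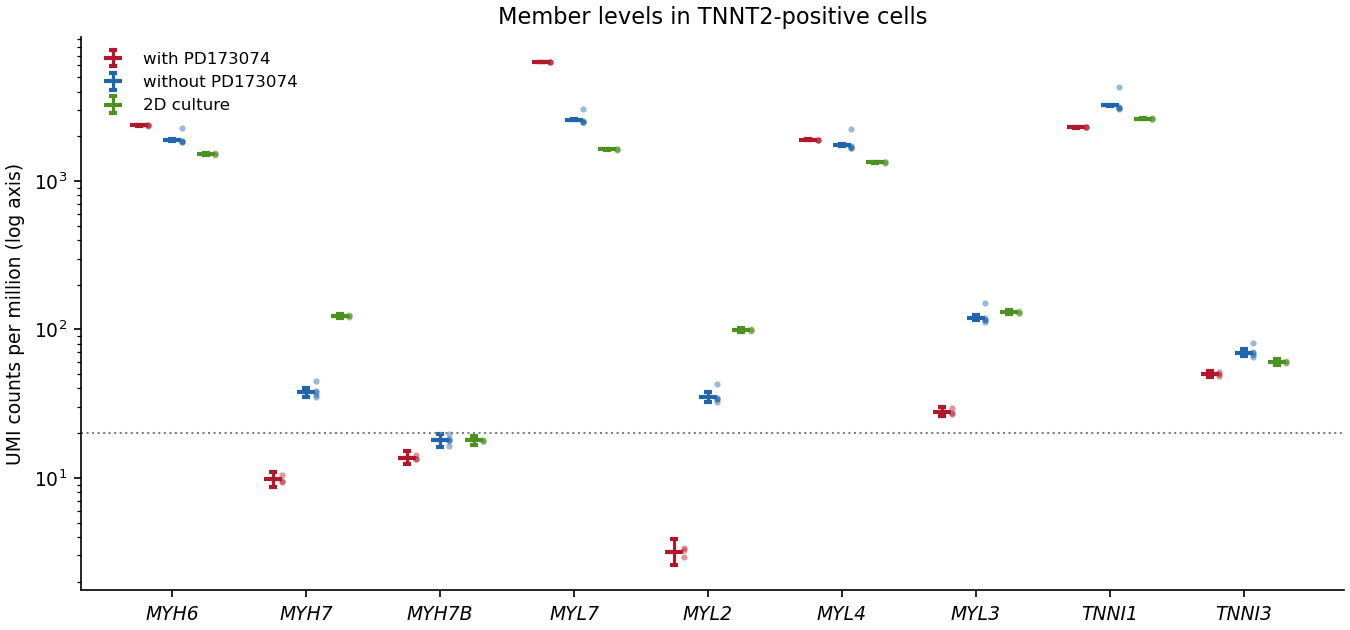
Level of each member in TNNT2-positive cells (CPM, log axis) with PD173074 (red), without PD173074 (blue) and in 2D culture (green). Horizontal marks are group values with 95% counting intervals, dots are repeat runs, and the dotted line is 20 CPM. MYL7 is highest with PD173074 at 6311 CPM, MYH7 and MYL2 are lowest there at 9.75 and 3.18 CPM, and TNNI3 lies between 50 and 69.7 CPM.

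Among the heavy chains, MYH6 was the abundant one in every group and MYH7 was the one that separated the groups. MYH6 stood at 2366 CPM with PD173074 (runs 2361 to 2370.1), 1890.3 CPM without PD173074 (runs 1829 to 2267) and 1519 CPM in 2D culture (runs 1503 to 1533). These values did not differ by 2-fold, and the log2 ratio with PD173074 over 2D culture was 0.64 (95% interval 0.62 to 0.66). MYH7 stood at 9.75 CPM with PD173074 (runs 9.41 to 10.4), 37.7 CPM without PD173074 (runs 35.3 to 44.6) and 123 CPM in 2D culture (runs 121 to 125). The runs of the 3 groups did not overlap, but they are repeat runs of 1 sample per group and show no spread between cultures. MYH7 was lower with PD173074 than without it by a log2 ratio of -1.95 (-2.15 to -1.76), lower without PD173074 than in 2D culture by -1.71 (-1.82 to -1.60), and lower with PD173074 than in 2D culture by -3.66 (-3.83 to -3.49). MYH7B stood at 13.7 CPM with PD173074, 17.9 CPM without PD173074 and 17.8 CPM in 2D culture. MYH6 and MYH7 share sequence near their 3′ ends: 15.6% of the 50-base words in the last 500 bases of MYH6 transcripts also occur in MYH7, and 16.6% in the reverse direction. No other pair of members shared such a word. How reads from the shared stretches were counted, and whether this changed the small MYH7 count in either direction, was not tested.

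The regulatory light chains moved in opposite directions. MYL7, the atrial chain, stood at 6311 CPM with PD173074 (runs 6285 to 6328), 2579 CPM without PD173074 (runs 2505 to 3042) and 1633 CPM in 2D culture (runs 1617 to 1649). It was 2.45-fold higher with PD173074 than without it (log2 1.29, 1.28 to 1.31) and 3.87-fold higher than in 2D culture (log2 1.95, 1.94 to 1.96). The log2 ratio without PD173074 over 2D culture was 0.66 (0.64 to 0.68), short of 2-fold. MYL2, the ventricular chain, stood at 3.18 CPM with PD173074 (runs 2.92 to 3.37), 34.8 CPM without PD173074 (runs 32.5 to 43.1) and 99.2 CPM in 2D culture (runs 98.0 to 100.2). It was lower with PD173074 than without it by a log2 ratio of -3.46 (-3.77 to -3.15), and lower without PD173074 than in 2D culture by -1.51 (-1.63 to -1.39). With PD173074 over 2D culture the ratio was -4.96 (-5.26 to -4.68), a 31.2-fold difference. A single cell held 31.9% of all MYL2 UMIs without PD173074 (215 of 674), and without that cell the level there was 23.7 CPM.

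Of the essential light chains, MYL3 was lower with PD173074 and MYL4 did not reach a 2-fold difference. MYL4, the atrial and embryonic chain, stood at 1892 CPM with PD173074, 1745 CPM without PD173074 and 1337 CPM in 2D culture, and no ratio reached 2-fold. MYL3, the ventricular and slow muscle chain, stood at 27.9 CPM with PD173074 (runs 26.8 to 29.6), 120 CPM without PD173074 (runs 112 to 152) and 131 CPM in 2D culture (runs 130 to 132). The PD173074 runs lay apart from all others, and the runs without PD173074 overlapped those of 2D culture. Being repeat runs, they show no spread between cultures. MYL3 was lower with PD173074 by -2.10 (-2.21 to -1.99) against cardioids without it and by -2.22 (-2.33 to -2.12) against 2D culture, while the ratio without PD173074 over 2D culture was -0.12 (-0.20 to -0.05). The cell with most MYL3 UMIs held 2.18% of them with PD173074, 0.656% without PD173074 and 0.315% in 2D culture, against 17.5%, 31.9% and 2.57% for MYL2 in the same order. Cells with at least 3 MYL3 UMIs made up 1.47%, 6.75% and 6.05% of TNNT2-positive cells and held 41.0%, 51.2% and 42.8% of its UMIs.

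Neither troponin I isoform differed by 2-fold between any groups. TNNI1 stood at 2308 CPM with PD173074 (runs 2295 to 2321), 3232 CPM without PD173074 (runs 3056 to 4299) and 2625 CPM in 2D culture (runs 2608 to 2648). TNNI3 stood at 50 CPM with PD173074 (runs 48.7 to 51.5), 69.7 CPM without PD173074 (runs 65.5 to 81.0) and 60.3 CPM in 2D culture (runs 59.1 to 61.2). The log2 ratio with PD173074 over without it was -0.49 (-0.50 to -0.47) for TNNI1 and -0.48 (-0.58 to -0.37) for TNNI3, short of 2-fold. For all 9 members the highest run without PD173074 was run 3, which was also the shallowest, at 12266166 UMIs. Leaving it out changed no call.

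The share of each pair of isoforms taken by the ventricular or adult member does not depend on their summed level. MYH7 made up 0.410% of MYH6 and MYH7 UMIs with PD173074 (95% exact binomial interval 0.366 to 0.458), 1.96% without PD173074 (1.82 to 2.10) and 7.50% in 2D culture (7.30 to 7.71). MYL2 made up 0.0503% of MYL2 and MYL7 UMIs with PD173074 (0.0410 to 0.0611), 1.33% without PD173074 (1.23 to 1.44) and 5.73% in 2D culture (5.55 to 5.90). These shares kept the same order of groups, with intervals that did not overlap. MYL3 made up 1.46% of MYL3 and MYL4 UMIs with PD173074 (1.36 to 1.55), 6.42% without PD173074 (6.17 to 6.68) and 8.89% in 2D culture (8.66 to 9.13). TNNI3 made up 2.12% of TNNI1 and TNNI3 UMIs with PD173074 (2.02 to 2.23), 2.11% without PD173074 (2.00 to 2.23) and 2.25% in 2D culture (2.16 to 2.34), with intervals that overlapped. A 3′ UMI counts a molecule and carries no transcript length, but capture can differ between genes. In the non-cardiomyocyte class (1225, 362 and 924 cells in the same order), MYH7 took 0.394%, 1.39% and 6.49% of its pair with PD173074, without PD173074 and in 2D culture. In those cells MYL2 took 0.150%, 0.251% and 4.81% of its pair. The MYH7 shares there lay near those of the TNNT2-positive cells of the same group. The MYL2 share was above theirs with PD173074 (interval 0.0858 to 0.243%) and below it without PD173074 (0.0479 to 0.757%). These 2 shares rest on 16 and 2.8 MYL2 UMIs, and their intervals cover counting error only, so no difference between the classes is read from them.

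**Figure D2:**
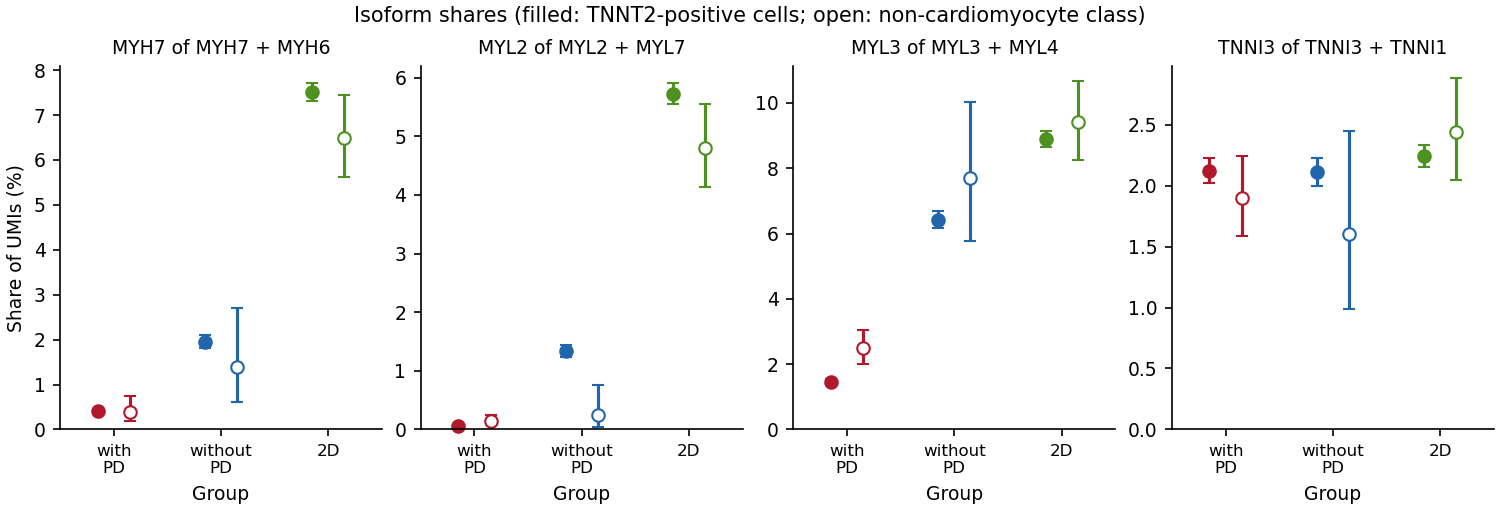
Share of each isoform pair's UMIs (%) taken by the first-named gene with PD173074, without PD173074 and in 2D culture, with 95% exact binomial intervals. Filled points are TNNT2-positive cells and open points the non-cardiomyocyte class; the filled points of the first 3 pairs are lowest with PD173074, and those of TNNI3 lie between 2.11 and 2.25%.

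To compare the mix cell by cell at an equal number of UMIs of the pair, 10 were drawn from every TNNT2-positive cell that had at least 10, and a cell was called dominated by an isoform that gave at least 8. The rule kept unlike parts of the groups. For MYH6 and MYH7 it kept 60.3% of TNNT2-positive cells with PD173074, 46.1% without PD173074 and 32.0% in 2D culture. For MYL2 and MYL7 it kept 71.4%, 40.8% and 23.6% in the same order, for MYL3 and MYL4 54.4%, 46.5% and 30.3%, and for TNNI1 and TNNI3 62.8%, 77.1% and 66.3%. The percentages are of those cells, and their order between groups was not tested apart from this choice. Among heavy chains, 0.0969% of such cells were dominated by MYH7 with PD173074 (of a mean of 2414 cells; interval 0.0147 to 0.321%), 1.06% without PD173074 (of 1497 cells; 0.604 to 1.72%) and 5.95% in 2D culture (of 2386 cells; 5.03 to 6.97%). With 20 UMIs drawn, which keeps only cells with more UMIs of the pair, these shares were 0.0221%, 1.90% and 10.1%. Cells with a mix of MYH6 and MYH7 made up 0.359% with PD173074, 0.922% without PD173074 and 4.01% in 2D culture. For the regulatory light chains mixed cells were the more frequent ones: MYL2-dominated cells made up 0% with PD173074 (upper bound 0.129%), 0.124% without PD173074 and 0.360% in 2D culture, and mixed cells 0.0350%, 0.632% and 4.25% in the same order. Mixed MYL3 and MYL4 cells made up 0.857% with PD173074, 7.13% without PD173074 and 12.2% in 2D culture. Mixed TNNI1 and TNNI3 cells made up 1.23% with PD173074, 0.787% without PD173074 and 1.20% in 2D culture, and no group averaged over 0.2 cells dominated by TNNI3.

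**Figure D3:**
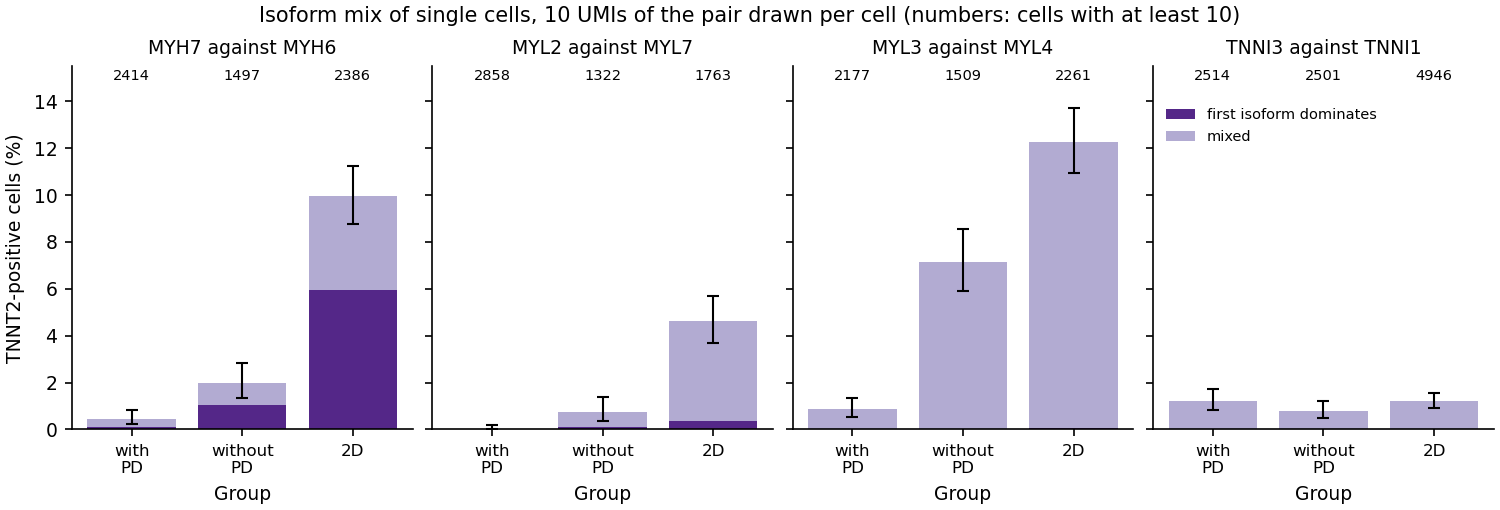
Percent of TNNT2-positive cells with at least 10 UMIs of the pair that were dominated by the first isoform (dark) or mixed (light), with PD173074, without PD173074 and in 2D culture. Whiskers are 95% exact binomial intervals of the sum, and the rest of the cells were dominated by the second isoform. The dark part is large only for MYH7 in 2D culture, at 5.95%.

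After thinning to 2000 UMIs per cell (shallower cells left out), 86.5% of TNNT2-positive cells had a MYL7 UMI with PD173074, 73.4% without PD173074 and 66.3% in 2D culture. In the non-cardiomyocyte class at the same depth the shares were 36.3%, 22.8% and 20.6%. These are no measure of background alone, since 58.6%, 34.3% and 37.8% of that class were also TNNT2-positive. MYL7 stood at 807, 342 and 370.04 CPM in the class and at 193, 95.2 and 113 CPM in cells without TNNT2. Unthinned, MYL7 was in 95.3%, 85.9% and 80.9% of TNNT2-positive cells, whose median depth was 6568, 5056 and 4240 UMIs, against 9055, 6303 and 9269.5 in the non-cardiomyocyte class. MYL2 was detected in 0.445% with PD173074, 1.51% without PD173074 and 5.19% in 2D culture, against 0.0823%, 0.0554% and 2.30% in the non-cardiomyocyte class. MYL3 was detected in 4.89% with PD173074, 16.3% without PD173074 and 18.9% in 2D culture, against 1.32%, 2.36% and 3.79%. MYH6 was detected in fewer cells with PD173074 (80.8%) than without it (89.8%) or in 2D culture (88.7%), which goes against its CPM, so no order is read from it. Of cells with a MYL2 UMI after thinning, 100% with PD173074, 85.5% without PD173074 and 87.2% in 2D culture also had a MYL7 UMI. As means over runs, 16.7, 38.8 and 316 cells had both, and 0, 6.6 and 46.3 had MYL2 alone, in the same order. With so few cells in the cardioid groups, no order is read from these shares.

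MYL2 and MYH7 counts came from few cells. Cells with at least 3 MYL2 UMIs numbered 5 of 4003 with PD173074 (0.125%, interval 0.0406 to 0.291%), 20 of 3244 without PD173074 (0.617%, 0.377 to 0.951%) and 187 of 7459 in 2D culture (2.51%, 2.16 to 2.89%). They held 49.8% of the MYL2 UMIs with PD173074, 86.4% without PD173074 and 85.3% in 2D culture. Cells with at least 3 MYH7 UMIs numbered 29, 37 and 354. With so few cells, the counting intervals of MYL2 and MYH7 understate the error of their group levels.

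Within each group, cells with at least 3 MYL2 UMIs were compared with the other TNNT2-positive cells. MYL2 itself chose them and is not a result. In 2D culture, where 2.83% of genes tested differed, MYH7 stood at 2059 CPM in these cells and 59.7 CPM in the others (log2 5.11, 5.03 to 5.19), and MYH6 at 670.1 and 1547 CPM (-1.21, -1.31 to -1.11). MYL3 stood at 427 and 121 CPM, MYL7 at 7826 and 1429 CPM, and TNNI3 at 264 and 53.6 CPM in the same order. All these intervals lay beyond 2-fold: the ventricular and adult isoforms were higher in the cells with MYL2, and so was the atrial MYL7. MYH7B stood at 32.8 and 17.4 CPM (0.92, 0.43 to 1.37). In the 20 cells without PD173074, where 1.88% of genes differed, the same order held for MYH7 (2003 and 22.4 CPM), MYL3 (669.6 and 115 CPM), MYL7 (7429.6 and 2542 CPM) and TNNI3 (628 and 65.3 CPM), and MYH6 was 1163 and 1896 CPM (-0.71, -0.93 to -0.49), short of 2-fold. In the 5 cells with PD173074, where 0.880% of genes differed, MYH7 stood at 312 and 9.32 CPM, TNNI3 at 423 and 49.5 CPM and MYL3 at 148 and 27.8 CPM, and MYL7 was at 6396 and 6311 CPM (0.02, -0.15 to 0.19). The MYH7 and MYL3 values there rest on 1 cell: without the cell with most MYL2, the other 4 had 1.67 MYH7 UMIs and 0 MYL3 UMIs in all, TNNI3 was still at 435 CPM, and TNNI1 passed the criterion at 5703 and 2305 CPM (1.31, 1.08 to 1.52). With all cells kept, TNNI1 did not pass it in any group. Leaving out the cell with most MYL2 changed none of these calls without PD173074 or in 2D culture.

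**Figure D4:**
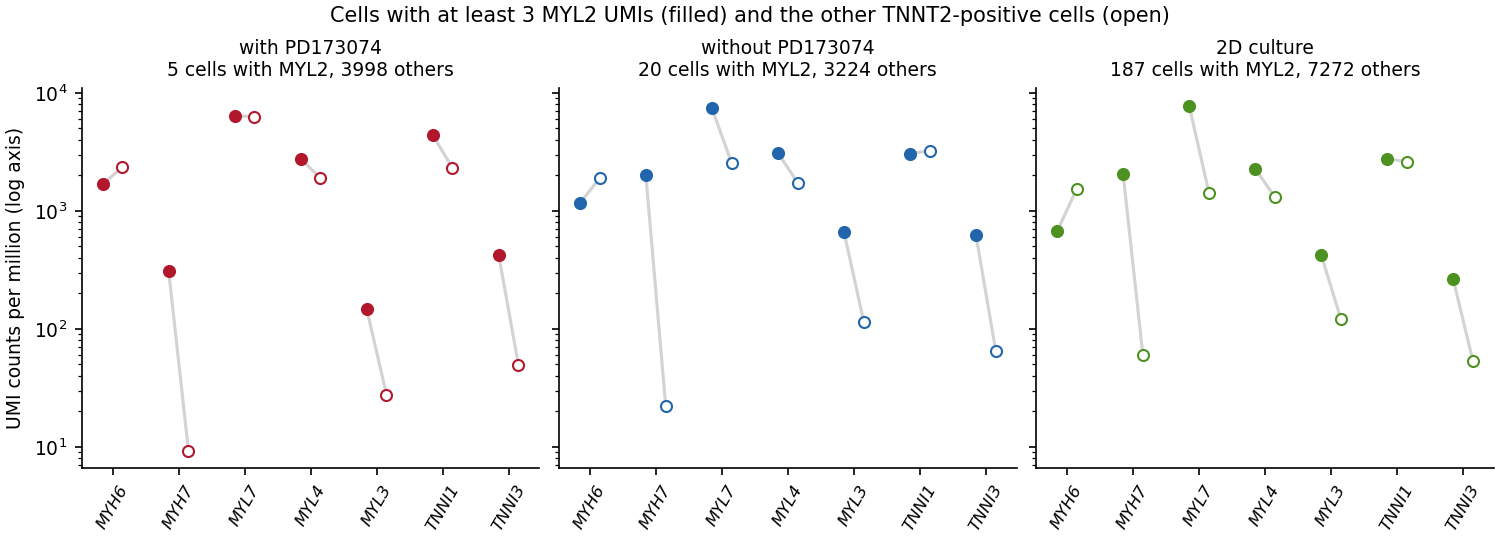
Member levels (CPM, log axis) in cells with at least 3 MYL2 UMIs (filled) and in the other TNNT2-positive cells (open) of each group. MYH7, MYL3 and TNNI3 are higher in the filled points of all 3 groups, for MYH7 and MYL3 with PD173074 through 1 of the 5 cells. MYL7 is 6396 against 6311 CPM with PD173074, 7429.6 against 2542 without PD173074 and 7826 against 1429 in 2D culture.

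Cells were also split by genes of chamber identity that were no part of the choice. NR2F2, an atrial transcription factor, had a UMI in 2697 TNNT2-positive cells with PD173074, 592 without PD173074 and 322 in 2D culture. With PD173074, MYH7 stood at 5.09 CPM in the NR2F2 cells and 26.1 CPM in the others (log2 -2.36, -2.70 to -2.03), the only one of 7 members at 20 CPM that differed, where 1.01% of genes did. Without PD173074, 3 of 8 members differed, where 1.68% of genes did: MYL7 at 4849 and 1968 CPM (1.30, 1.28 to 1.33), MYH7 at 12.8 and 44.4 CPM, and MYL2 at 3.75 and 43.2 CPM. In 2D culture none of 8 members differed, where 0.897% of genes did, and MYL7 was 1591 and 1636 CPM. MYL2 was 58.7 and 102 CPM there, and without the 1 cell with most MYL2, an NR2F2 cell, it was 23.0 and 102 CPM and passed the criterion (-2.15, -2.53 to -1.80). Cells with a UMI of IRX4 or HEY2, ventricular transcription factors, held 40.1 CPM of MYH7 and 21.3 CPM of MYL2 with PD173074, against 7.14 and 1.62 CPM in the others, the 2 of 8 members that differed where 1.96% of genes did. Without PD173074, MYL2 was 14.5 CPM in the IRX4 or HEY2 cells and 43.0 CPM in the others (-1.57, -1.93 to -1.23), where 0.506% of genes differed. In 2D culture it was 90.8 and 102 CPM, and none of 8 members differed where 0.296% of genes did. The MYL2 calls in both cardioid groups rest on 1 cell each, the one with most MYL2 in its group. Without that cell MYL2 was 14.4 CPM in the IRX4 or HEY2 cells and 1.62 CPM in the others with PD173074 (3.15, 2.49 to 3.81; under 20 CPM), and 14.5 and 27.4 CPM without PD173074 (-0.92, -1.29 to -0.57), and neither passed the criterion. SHOX2, a sinus node factor, had a UMI in 473 TNNT2-positive cells with PD173074, 58 without PD173074 and 5 in 2D culture. No member passed the criterion in the SHOX2 cells with PD173074 (3.22% of genes did), and the nearest was TNNI3 at 90.3 CPM, against 42.7 CPM in the others (1.08, 0.92 to 1.24). Without PD173074, 3 of 8 members passed, 2 of them on under 3 UMIs in the SHOX2 cells, where 3.72% of genes did. MYL7 stood at 6751 CPM in SHOX2 cells and 2497 CPM in the others (1.43, 1.38 to 1.49). MYH7 and MYL2 were each at 0.535 CPM in the SHOX2 cells, on 0.2 UMIs, against 38.5 and 35.5 CPM in the others. With 86.4% of the group's MYL2 UMIs in 20 cells, 58 cells are too few to read an absence from these 2 values. In 2D culture, where 0.972% of genes passed, no member did. Cells with a UMI of MKI67 or TOP2A, genes of cycling cells, held 19.7 CPM of TNNI3 with PD173074 against 53.5 CPM in the others (-1.44, -1.83 to -1.09), the 1 of 6 members that differed where 4.85% of genes did. Without PD173074 TNNI3 stood at 44.1 and 71.5 CPM (-0.70, -1.11 to -0.31), and the member that differed was MYL2 (2.54 and 37.1 CPM, on 3.2 UMIs), where 5.76% of genes did. In 2D culture no member differed, where 3.45% of genes did. Cells with a marker were deeper than the others in most splits, for example a median of 7597 against 4759 UMIs for NR2F2 with PD173074, and the part of depth in these values was not tested.

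TNNT2-positive cells were clustered without the 9 members and TNNT2, into 14 clusters numbered 0 to 13. Cluster 8 (581 cells, of which 20 with PD173074, 50 without PD173074 and 511 in 2D culture), led by NPPB, LMOD2, ANKRD1 and ACTA1, had 1470.2 CPM of MYH7, 1221 CPM of MYL2, 331 CPM of MYL3 and 232 CPM of TNNI3. It held 20 of the 20 cells without PD173074 and 142 of the 187 cells in 2D culture with at least 3 MYL2 UMIs, and none of the 5 with PD173074, of which 4 lay in cluster 5 and 1 in cluster 13. The highest MYL7 levels were in clusters 6, 3 and 9, at 9660.4, 9388 and 8672 CPM, of which 84.9 to 86.1% of cells came from the group with PD173074, followed by cluster 8 at 7907 CPM.

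Levels were then compared within the 6 clusters that held at least 50 cells of both cardioid groups. Clusters 3, 6 and 9 held 34.5%, 16.8% and 12.0% of the TNNT2-positive cells with PD173074, and 7.43%, 3.36% and 2.37% of those without PD173074, and MYL7 did not pass the criterion between the groups in any of them. It was 9515 CPM with PD173074, against 8291 CPM without PD173074, in cluster 3 (log2 0.20, 0.17 to 0.23), at 9657 and 9699 CPM in cluster 6 (-0.01, -0.05 to 0.04), and at 8525 and 10319 CPM in cluster 9 (-0.28, -0.33 to -0.22). In the other 3 clusters MYL7 was higher with PD173074: 3368 and 1448 CPM in cluster 5 (1.22, 1.15 to 1.29), 7952 and 3466 CPM in cluster 10 (1.20, 1.14 to 1.25), and 2786 and 566 CPM in cluster 11 (2.30, 2.15 to 2.45). Genes leading cluster 10 included PIMREG, KIF20A and NEK2, and those leading cluster 11 included NNMT, ITGA11, ELN and COL8A1. Cluster 11 held 52 and 50 cells, and MYH6 was 1024 and 556 CPM there (0.88, 0.70 to 1.06). Whether cells of cluster 11 were cardiomyocytes was not tested beyond their TNNT2 UMIs. Of all genes tested, 0.0257%, 0.0898% and 0.0378% differed in clusters 3, 6 and 9, and 0.682%, 1.71% and 5.02% in clusters 5, 10 and 11. MYL3 passed the criterion in cluster 10, at 23.5 and 81.1 CPM (-1.79, -2.39 to -1.20), its log2 ratio was below 0 in 5 of the 6 clusters, and in cluster 6 it was 0.58 on 4.2 UMIs without PD173074. MYL4 passed in cluster 11 (909.8 and 374 CPM). MYH7 had 4 ratios with at least 3 UMIs on both sides, 3 above 0 and 1 below, against its ratio of -1.95 over all TNNT2-positive cells. Of the 3 above 0, those in clusters 3 and 6 had intervals that held 0 (-1.24 to 1.99 and -1.28 to 2.54). In cluster 5, MYH7 was 35.2 CPM with PD173074, against 7.06 CPM without PD173074 (2.32, 1.39 to 3.42), and MYL2 was 16.6 and 2.60 CPM. With every cell left out that lay in a cluster mostly of another group, which kept 1525 of the 3244 cells without PD173074, MYH7 was 8.58 CPM with PD173074, against 11.9 CPM without PD173074, and MYL2 was 3.08 and 3.41 CPM, and neither passed the criterion. The calls of MYH7 and MYL2 between the cardioid groups thus rested on cells left out in that way, among them the 50 cells without PD173074 in cluster 8. MYL7 and MYL3 passed the criterion in that comparison (log2 1.39 and -2.39), but the removal was uneven. It took clusters 3, 6 and 9 out of the group without PD173074 and kept them with PD173074. Cluster 4, with MYL7 at 2328 CPM and MYL3 at 140 CPM, was taken out with PD173074 and kept without it. These 2 ratios therefore do not show what remains of MYL7 and MYL3 apart from the clusters. These comparisons were chosen after values were seen, and with clusters built over all groups and no correction between them, groups that differ in many genes fall into different clusters.

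Against 2D culture, the 9 clusters with at least 50 cells of each were compared without PD173074. Cluster 8 held MYL2 at 1821 CPM without PD173074 and 1200.4 CPM in 2D culture (0.60, 0.47 to 0.73), or 1179 and 1164 CPM without the cell of each group with most MYL2 (0.02, -0.14 to 0.18), MYH7 at 1337 and 1547 CPM (-0.21, -0.36 to -0.07), and none of 9 members differed there, where 0.0261% of genes did. MYH7 was lower without PD173074 in cluster 5 (7.06 and 118 CPM), cluster 10 (32.3 and 157 CPM) and cluster 11 (8.39 and 40.8 CPM), where 0.218%, 0.668% and 0.133% of genes differed. MYL2 was lower without PD173074 in cluster 7 (9.31 and 62.2 CPM), where 0.244% did. No member differed in clusters 0, 1, 2 and 4, where 0%, 0%, 0.0138% and 0.281% of genes did. With PD173074 over 2D culture, 3 clusters could be compared. MYH7 was lower with PD173074 in cluster 5 (35.2 and 118 CPM) and cluster 10 (15.3 and 157 CPM), and MYL7 was higher in cluster 10 (7952 and 1798 CPM) and cluster 11 (2786 and 719 CPM), where 0.413%, 4.04% and 6.58% of genes differed in clusters 5, 10 and 11. MYL3 was lower with PD173074 in cluster 10 (23.5 and 100.4 CPM). Ratios with under 3 UMIs on either side are not given, which leaves out some of the widest gaps. In clusters 10 and 11, MYL2 was 222 and 37.2 CPM in 2D culture. It was 1.49 and 2.16 CPM there without PD173074, and 0.839 and 0 CPM with PD173074. MYH7 in cluster 11 was 0.627 CPM with PD173074, against 40.8 CPM in 2D culture.

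**Figure D5:**
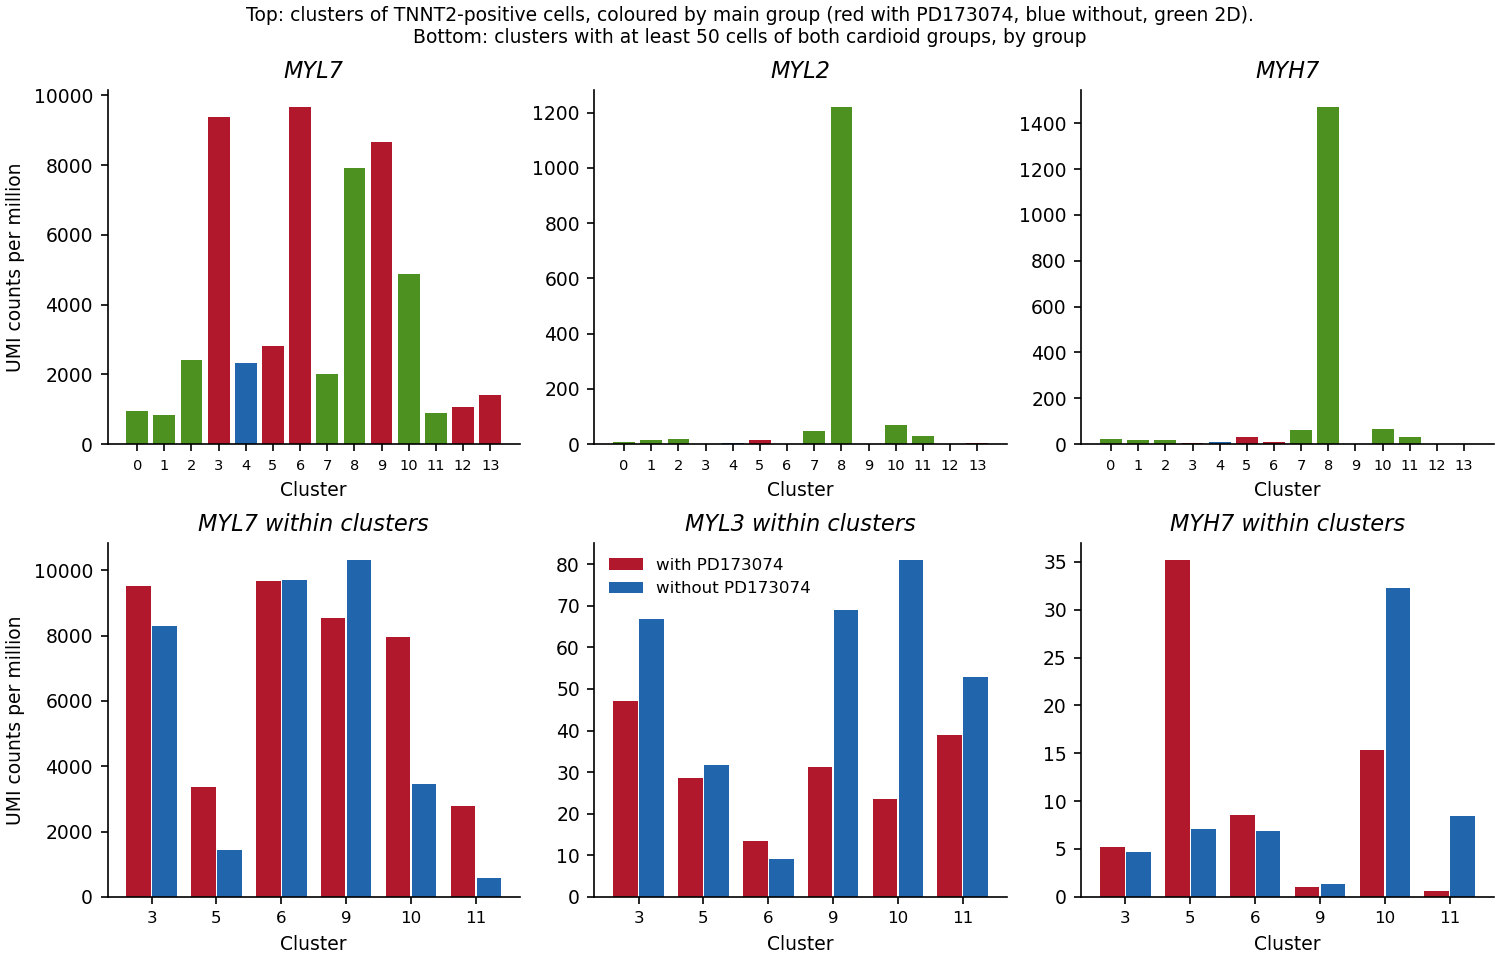
Top, MYL7, MYL2 and MYH7 (CPM) in the 14 clusters of TNNT2-positive cells, coloured by the group that gave most cells (red with PD173074, blue without PD173074, green 2D culture). Bottom, MYL7, MYL3 and MYH7 by group in the 6 clusters with at least 50 cells of both cardioid groups. MYL2 and MYH7 peak in cluster 8, at 1221 and 1470.2 CPM, and MYL7 in cluster 6 is 9657 CPM with PD173074 and 9699 CPM without PD173074.

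Across single TNNT2-positive cells, Pearson's r of log-normalized counts is given as a description. Cells share libraries and depth, and r in sparse counts is low. MYH7 and MYL2 had r of 0.22 with PD173074, 0.57 without PD173074 and 0.64 in 2D culture. MYH6 and MYH7 had r of 0.03, -0.10 and -0.34 in the same order, and MYL4 and MYL7 0.80, 0.61 and 0.50. Outside the members, the gene most like MYH6 among 14174 genes was TTN (lowest r of the 3 groups 0.39), then AC020909.2 (0.31), TECRL (0.30), SLC8A1 (0.29) and CACNB2 (0.29). MYL4 was most like TNNT2 (0.56), MYL9 (0.54), TPM1 (0.53), TNNC1 (0.52) and ACTC1 (0.52), and MYL7 like TPM1 (0.60), ACTC1 (0.51), TNNC1 (0.51), MYL9 (0.48) and TNNT2 (0.40). TNNI1 was most like TNNT2 (0.65), PRDX2 (0.57), MYL9 (0.55), ATP5MC3 (0.55) and MGST3 (0.55). MYL3 reached 0.23 with CKM, the muscle creatine kinase, and with TNNC1. TNNI3 reached 0.21 with TPM1, 0.20 with ACTC1 and 0.20 with CSRP3. No gene reached 0.2 in all 3 groups for MYH7, MYH7B or MYL2.

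Other lists of muscle genes were chosen with earlier results of these data known. The first held 21 further myosin and troponin genes, of which MYH1, MYH2 and MYH8, skeletal chains, were at 0 in all 3 groups. Of 9 at 20 CPM, 1 was higher with PD173074 than without it and none lower, where 3.43% and 2.04% of all genes tested were. Their median log2 ratio was 0.19, against -0.09 over all genes tested. The higher gene was MYH11, the smooth muscle heavy chain, at 24.4 CPM with PD173074, against 7.01 CPM without PD173074 (1.80, 1.54 to 2.08). MYH9, a non-muscle chain, was 129 and 75.1 CPM (0.78, 0.69 to 0.87) and did not pass. The 4 smooth muscle markers, MYH11 included, summed to 2208 CPM with PD173074, against 1396 CPM without PD173074, and their part in the MYH11 value was not tested. Of 19 other sarcomere genes at 20 CPM none was higher and 1 lower with PD173074 than without it: ACTA1, skeletal alpha-actin, at 48.8 and 113 CPM (-1.21, -1.31 to -1.12). Against 2D culture, where 2.62% of genes tested were lower with PD173074, 2 of 19 were, ACTA1 (48.8 and 171 CPM) and CSRP3 (287 and 629 CPM). Next in size and not past the criterion between the cardioid groups were MYLK3, the cardiac myosin light chain kinase (16.2 and 35.6 CPM; -1.14, -1.30 to -0.97), MYOM2 (13.3 and 22.7 CPM) and NEBL (427 and 718 CPM). The 5 skeletal muscle markers summed to at most 0.818 CPM in any group, with MYF5 at 0.

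Among heart transcription factors, 4 of 18 at 20 CPM were higher and 2 lower with PD173074 than without it, where 3.43% and 2.04% of all genes tested were. The atrial factors NR2F1 (56.3 and 7.18 CPM) and NR2F2 (383 and 89.3 CPM) were higher. So were HAND1 (158 and 37.98 CPM) and THRB, a thyroid hormone receptor (71.7 and 21.6 CPM), which are not counted here as atrial factors. The non-cardiomyocyte class made up 17.9% of TNNT2-positive cells with PD173074 and 3.82% without it, and its part in the values of this list was not tested. The ventricular factor IRX4 (12.2 and 83.0 CPM) and NKX2-5 (386 and 829 CPM) were lower. THRB and NKX2-5 were named after their values were seen. The median log2 ratio of the list was 0.37. Among 7 calcium and energy genes tied to maturity, SLN, the atrial calcium pump regulator sarcolipin, was higher (60.3 and 22.8 CPM), and MB, the oxygen store myoglobin, was lower (127 and 732 CPM; -2.53, -2.58 to -2.48). ATP2A2, the sarcoplasmic calcium pump, was 720.2 CPM with PD173074, against 376 CPM without PD173074 (0.94, 0.90 to 0.98). Without PD173074 over 2D culture, where 1.03% of genes tested differed, NR2F2 was the only gene of these 4 lists that did, at 89.3 and 23.2 CPM (1.94, 1.83 to 2.06). With PD173074 over 2D culture, 6 of 18 heart transcription factors were higher and 1 lower. Of the 7 calcium and energy genes, 2 were higher and 3 lower in that comparison, where 5.33% of genes tested were higher and 2.62% lower.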

How the data were processed

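The authors deposited, for each of 11 libraries, unnormalized UMI counts by gene and barcode, made with a 3′ droplet kit (version 2 or 3, per the labels' protocols, which do not say which). The submitters' processing notes name Cell Ranger 7.0.0 and hg38, but no annotation release. Cells were barcodes in every run of a group with a mean of at least 1000 UMIs, 500 genes and at most 30% mitochondrial UMIs. No doublet caller was run. Repeat runs read the same molecules (the variance of their differences was 0.504 to 0.886 of Poisson), so counts were averaged, not summed; 12 of 16 pairs of runs agreed within sampling noise, and the other 4 held run 3 without PD173074. CPM is a gene's summed UMIs over the cells of a set, per 1000000 UMIs. Intervals are 95% exact Poisson or binomial (Clopper-Pearson), and ratios use a floor of 3 counts. Non-cardiomyocytes had at least 10 UMIs of stromal, cartilage or epithelial markers and more of these than of TTN, RYR2 and ACTN2.

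The members and lists were chosen with earlier results of these data known. The text names the members, up to 4 genes of each list with the largest ratio at 20 CPM in each comparison, and up to 5 genes most like each member where r reached 0.2; drawing and thinning used seed 0. Clusters came from scanpy 1.11.5 and leidenalg 0.10.2 (2000 variable genes, 30 components, 15 neighbours, resolution 0.6), without correction between groups. Analyses used Python 3.11.15, numpy 2.4.6, scipy 1.17.1 and pandas 2.3.3; edgeR 4.0.16 and DESeq2 1.42.0 gave alternative scalings only. Tested on simulated data for with over without PD173074 (7781 genes at 20 CPM), 100 of 100 genes changed 4-fold were called, 0 of 100 changed 1.5-fold and 0 of 7581 unchanged. The simulated counts held counting error alone, the same error that the interval assumes. They carried no spread between cells or cultures, so they give no rate of false calls from such spread. Protein sequences were not used here. Gene positions are GENCODE v29 (GRCh38).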

Additional observations from a re-analysis of the deposited data

How the results depend on the processing

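No paired analysis was possible because each group is 1 sample, its replicate numbers are repeat runs, and the results come from no test. The alternatives run over whole groups include leaving out 1 repeat run of the same droplets, which says nothing of the spread between cultures. None of the 10 called ratios changed direction under these alternatives, and 159 of their 202 recomputed values, those without a run included, stayed inside the original interval. Within single clusters some took the other sign: with PD173074 over without it, MYH7 in clusters 3, 5 and 6 (0.16, 2.32 and 0.31), MYL2 in cluster 5 (2.68), MYL3 in cluster 6 (0.58) and MYL7 in clusters 6 and 9 (-0.0063 and -0.28), and without PD173074 over 2D culture, MYH7 in clusters 0 and 7 (0.38 and 0.21) and MYL2 in cluster 8 (0.60). Of these, the intervals of MYH7 in clusters 3 and 6, and of MYL3 and MYL7 in cluster 6, held 0. Those of MYH7 in clusters 0 and 7 over 2D culture also held 0, and no sign is read from any of them. Leaving out each run in turn kept the count of members called at 4 with PD173074 over without it, 2 without PD173074 over 2D culture and 4 with PD173074 over 2D culture, as did TMM and median-of-ratios scaling, equal weight per cell, a floor of 10 CPM or none, TNNT2 in any run or at 3 UMIs, TNNT2 cells outside the non-cardiomyocyte class, all cells, a 15% mitochondrial limit, no cell filter, the deepest 5% of cells left out and the top cell of each member left out. At 3-fold, the count was 1 without PD173074 over 2D culture (MYL2 lost) and 3 with PD173074 over without it (MYL7 lost). With cells of clusters mostly of another group left out, it was 2 with PD173074 over without it (MYH7 at -0.48 and MYL2 at -0.15 lost). Without PD173074 over 2D culture, the log2 ratio was then -3.38 for MYH7, against -1.71, and -4.88 for MYL2, against -1.51. That setting took cluster 8 out of both cardioid groups and kept it in 2D culture, so the larger ratios reflect an uneven removal. Between the cardioid groups it took clusters 3, 6 and 9 out only without PD173074. The 2 calls kept there, MYL7 and MYL3, thus come from an uneven removal too. The setting kept 1525 of 3244 cells without PD173074 and 7318 of 7459 in 2D culture. With cells of at least 3 MYL2 UMIs left out, MYL2 was under 20 CPM in every group (1.60, 4.77 and 15.1 CPM) and so was not called, with log2 ratios of -1.58, -1.66 and -3.24 in the order above, and the counts were 3, 1 and 3. These 2 settings, the top-cell settings and the comparisons within clusters were chosen after seeing the data. Drawing 20 UMIs, with dominance at 16, moved the share dominated by MYH7 to 1.90% without PD173074, against 1.06%, and to 10.1% in 2D culture, against 5.95%, and gave fewer cells dominated by MYH6 without PD173074 (96.5%, against 98.0%) and in 2D culture (83.5%, against 90.0%), by MYL7 in 2D culture (92.02%, against 95.4%), and by MYL4 without PD173074 (89.8%, against 92.8%) and in 2D culture (81.4%, against 87.7%); it keeps only cells with more UMIs of the pair. At 1.5-fold, MYL7 without PD173074 over 2D culture and MYH6 with PD173074 over 2D culture were also called. TNNI1 with PD173074 over 2D culture ranged from -0.22 to 0.05. Culture-to-culture error is unknown, since the runs of a group are 1 sample, and levels of MYL2 and MYH7 rest on few cells.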
